A study of Arabidopsis thaliana with 6 samples.

Results

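GDSL esterases and lipases form a large family of plant hydrolases, and 4 Arabidopsis genes of this family are described here in inflorescences that carry or lack the *fil-10* mutation. They are *AT1G29660*, *AT1G29670*, *AT4G10950* and *AT1G75920*, the last of which encodes the anther protein EXL5. The 4 were chosen as listed family members with a probe set of their own that lie on different sides of the comparison of *bp er fil-10* with *bp er*. The differences of these 4 genes between the genotypes are therefore given as a description, with no test. They are 4 of the 74 family genes that had a named probe set, out of 114 family genes listed.

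The enzymes of this family take their name from a glycine, aspartate, serine and leucine motif that holds the catalytic serine. They cut ester bonds in lipids and related compounds. In Arabidopsis, members are known from the polymerization of cutin in floral surfaces, from the lipid-rich coat of pollen grains, where extracellular lipases (EXL proteins) are found, and from defence. No protein or promoter sequence of these genes was used here, so none is printed.

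Of the 6 Affymetrix ATH1 arrays, 3 held RNA of *bp er*, called the parent below, and 3 held RNA of *bp er fil-10*, called the suppressor. Both genotypes carry mutations in *BREVIPEDICELLUS* (a homeobox gene) and *ERECTA* (a receptor kinase gene). The second also carries *fil-10*, 1 chemically induced allele of the YABBY gene *FILAMENTOUS FLOWER* that suppresses the *bp er* growth defects and was backcrossed to the parent. RNA came from inflorescences with floral stages 1 to 13, from which the study had removed the older flowers. Plants were grown at 22 °C with 16 h of light. Cell types were not separated, so fewer cells of a type and less RNA per cell cannot be told apart. The study made the comparison to find genes whose expression depends on FIL.

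The values are MAS signals, a linear measure of hybridization to each probe set that the authors scaled to a target of 500 on every array. The median signal per array lay between 193 and 215. Testing required a signal of 100 or more on any 3 arrays, which 14456 probe sets reached. At an adjusted p under 0.05 (Benjamini-Hochberg), limma found 1 of these lower and 0 higher in the suppressor, and 1021 (7.06%) and 1414 (9.78%) had an unadjusted p under 0.05. When the replicate number was added as a block, 308 were lower and 232 higher, and 9.64% and 12.4% had an unadjusted p under 0.05. The labels do not say what a replicate number shares. After genotype means were removed, only parent replicate 3 correlated most with the suppressor array of its own number. Calls with the block rest on this uncertain pairing. Floral organ identity genes could not serve to check the tissue, because only *UFO* of 12 had a named probe set, with signals under 100 on all 6 arrays. Of the tapetum list, *ATA27* had signals of 9054 to 12126 and *AMS* of 99.1 to 136, and neither *FIL* nor *BP* had a named probe set here.

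*AT1G29660* had the largest separation of the 4 genes. Its signal was 792, 528 and 564 on parent replicates 1, 2 and 3 and 171, 234 and 172 on suppressor replicates 1, 2 and 3. The suppressor arrays were all below the parent arrays, and the highest suppressor signal was 0.444 times the lowest parent signal. The mean was 628 ± 143 in the parent and 192 ± 36.3 in the suppressor (SD, n = 3 arrays per genotype), 3.26 times higher in the parent. The log2 difference, suppressor minus the parent, was −1.70 (SE 0.22) and ranged from −1.85 to −1.52 with any 1 array left out.

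*AT1G29670* is the next protein-coding gene to *AT1G29660* on chromosome 1, and its probe set gave another picture. Its signal was 3278, 3292 and 2318 on the parent arrays and 3084, 2276 and 1489 on the suppressor arrays, in the order of replicates 1 to 3. The genotypes overlapped, with suppressor replicate 1 above parent replicate 3. The means were 2963 ± 558 and 2283 ± 798 (SD, n = 3 per genotype), and the log2 difference was −0.42 (SE 0.27). It was −0.67 without suppressor replicate 1 and −0.14 without suppressor replicate 3. Both genes of this neighbouring couple thus had a lower mean log2 signal in the suppressor, but only *AT1G29660* had arrays that did not overlap. The difference between the neighbours was not tested, since both were chosen from this contrast.

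*AT4G10950*, which encodes an SGNH hydrolase-type esterase on chromosome 4, lay on the other side. Its signal was 162, 205 and 143 on the parent arrays and 410, 460 and 338 on the suppressor arrays (replicates 1, 2 and 3). All suppressor arrays were above all parent arrays, the highest parent signal being 0.606 times the lowest suppressor signal. The means were 170 ± 31.6 and 402 ± 61.1 (SD, n = 3 per genotype), a ratio of 2.37, and the log2 difference was 1.25 (SE 0.21), from 1.13 to 1.39 with 1 array left out. Within both genotypes, replicate 2 had the highest and replicate 3 the lowest signal.

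The EXL5 gene *AT1G75920* had signals of 904, 1341 and 437 in the parent and 1154, 1041 and 1384 in the suppressor (replicates 1, 2 and 3). The genotypes overlapped: parent replicate 2 lay above suppressor replicates 1 and 2, and parent replicate 3 was the lowest array. The means were 894 ± 452 and 1193 ± 175 (SD, n = 3 per genotype), and the log2 difference was 0.55 (SE 0.36). Without parent replicate 3 the log2 difference was 0.11, so most of it rested on that array. With any other array left out it was up to 0.91.

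**Figure D1:**
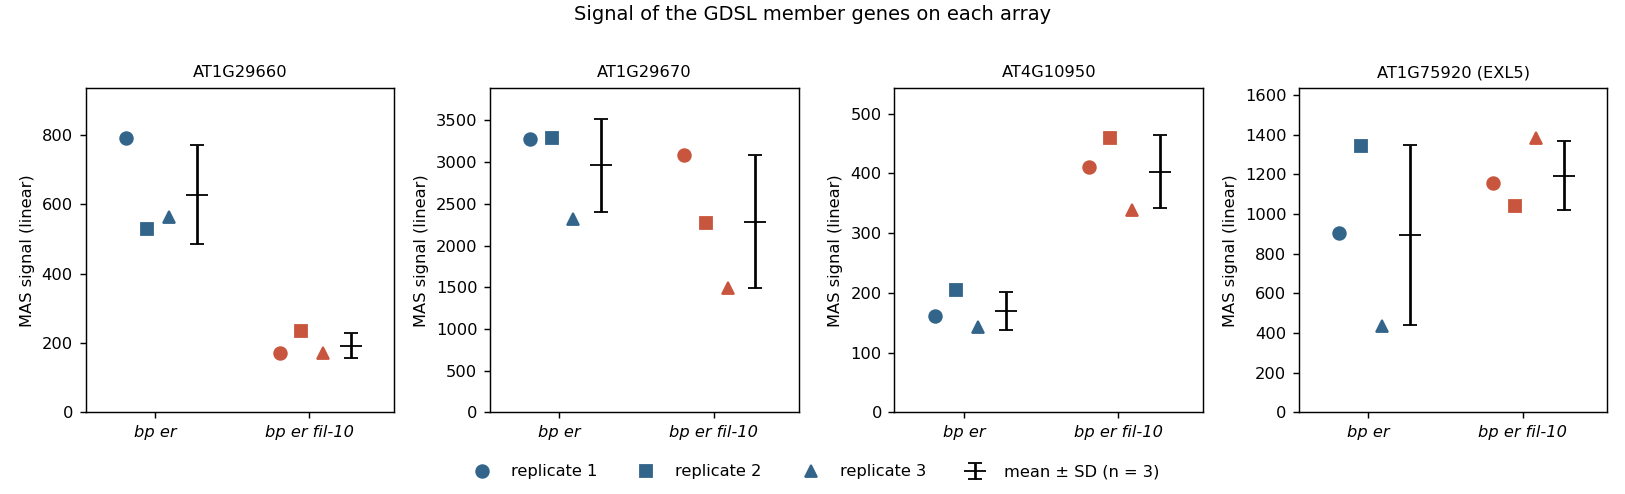
MAS signal (linear, from 0) of the 4 genes on each array, with replicates 1, 2 and 3 as circles, squares and triangles, *bp er* in blue and *bp er fil-10* in red, and the mean ± SD of 3 arrays in black. The *AT1G29660* and *AT4G10950* arrays separate by genotype in opposite directions, while those of *AT1G29670* and *AT1G75920* (EXL5) overlap.

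Of the 4 genes, 2 had genotypes that did not overlap, 1 in each direction. Over all probe sets tested, 9.13% did so with the suppressor lower and 14.2% with it higher, and nothing is read from the count because the genes were chosen from this contrast. The spread between replicates differed among the 4. The pooled SD of the log2 signal within genotypes was 0.24 for *AT4G10950*, 0.29 for *AT1G29660*, 0.43 for *AT1G29670* and 0.60 for *AT1G75920*. Of all probe sets tested, 46.5%, 58.0%, 80.0% and 91.1% had a smaller SD than these genes, in that order. The 2 genes whose genotypes overlapped had the larger spread and the smaller differences, from which overlap follows in part.

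Replicate 3 stood apart from replicates 1 and 2 on many probe sets, and the 4 genes differed in this as well. On the log2 scale, replicate 3 of *AT1G29670* was below the mean of replicates 1 and 2 by −0.50 in the parent and by −0.83 in the suppressor. For *AT1G29660* the same differences were −0.20 and −0.22, and for *AT4G10950* −0.35 and −0.36. *AT1G75920* had −1.33 in the parent but 0.34 in the suppressor. The first 3 genes were thus lower on replicate 3 in both genotypes, and the EXL5 gene was lower in 1 and higher in the other.

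The genes whose log2 signals followed each of the 4 most closely over the 6 arrays were found by Pearson's r among 7834 other named probe sets. With 6 arrays that share genotype and replicate number, many genes reach a high r by this measure, so it is given as a description. *AT1G29660* was followed most closely by *AT4G15640* (r = 0.994), the chloroplast ribosomal protein gene *rps4* (0.989) and *AT4G13270* (0.988). *AT4G10950* was followed by *AT5G16920* (0.997), *AT3G06480* (0.994) and *AT4G18530* (0.993). *AT4G15640* differed between the genotypes by only −0.34 and *AT5G16920* by 0.34 on the log2 scale, so the likeness is one of shape, not of size.

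For *AT1G29670* the closest gene was *SHN3*, which encodes an AP2/ERF transcription factor, with r = 0.978 over the 6 arrays and 0.993 for the deviations from each genotype's mean. *SHN3* had signals of 497, 484 and 408 in the parent and 433, 383 and 295 in the suppressor (replicates 1, 2 and 3), low on replicate 3 in both genotypes as *AT1G29670* was. *AT2G39670* (0.969) and *AT3G15110* (0.966) came next. For *AT1G75920* the closest were *AT2G19930* (0.994), *AT1G10090* (0.993) and *AT5G48790* (0.990), each lowest on parent replicate 3 and highest on suppressor replicate 3. The *AT2G19930* signal on parent replicate 3 was only 8.2, and its r without that array was not computed. Over the 6 arrays, 123 named probe sets had r above 0.95 with *AT4G10950*, 62 with *AT1G75920*, 49 with *AT1G29660* and 8 with *AT1G29670*. Among the 4 genes themselves, *AT1G29660* and *AT1G29670* had r = 0.539 over the 6 arrays and 0.177 for the deviations within genotypes, and *AT1G29670* and *AT4G10950* had −0.317 and 0.675.

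Of the other 70 family genes with a named probe set, 44 were tested, and their log2 differences leaned to lower signal in the suppressor. There were 32 with a negative and 12 with a positive difference, a share of 72.7% negative against 43.6% of all probe sets tested. The median was −0.18, against 0.06 over all probe sets tested, and the differences ran from −1.21 to 0.97. The suppressor arrays all lay below the parent arrays in 6 of the 44 (13.6%, against 9.13% of all probe sets tested) and above them in 0 (against 14.2%). These counts moved with single arrays. Without suppressor replicate 3, 19 (43.2%) lay wholly lower in the suppressor, against 18.5% of all probe sets, and 1 (2.27%) wholly higher, against 24.1%. Leaving out each of the other arrays in turn gave 6 to 10 wholly lower (13.6% to 22.7%, against 11.4% to 14.4% of all probe sets) and 0 to 3 wholly higher (against 17.1% to 21.2%). Without parent replicate 2, the 13.6% wholly lower was close to the 13.7% of all probe sets.

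None of the 44 had an adjusted p under 0.05 in limma's fit without a block, where 0.00692% of all probe sets tested were called lower and 0.0% higher. At an unadjusted p under 0.05 there were 6 lower and 2 higher, against 7.06% and 9.78% of all probe sets. With the replicate block 8 were lower and 2 higher by the unadjusted p, against 9.64% and 12.4%. By the adjusted p with the block, 4 were called lower and 0 higher, against 2.13% and 1.6%. The 4 were *AT1G75900*, *AT4G28780*, *RXF26* (AT1G58430) and *AT5G33370*. The study lists *AT1G75900* and *AT4G28780* among genes lower in the suppressor on the same arrays, so their direction is not independent evidence. Without suppressor replicate 3 the fit with no block called 3 of these 4 (*AT1G75900*, *AT4G28780* and *RXF26*, limma adjusted p = 0.0443, 0.0460 and 0.0473). Leaving out that array also raised the calls over all 14456 probe sets, to 82 lower and 41 higher, from 1 and 0 on all arrays. The 3 calls are thus not particular to the family.

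*AT1G75900* had signals of 1881, 1498 and 2127 in the parent and 750, 802 and 1017 in the suppressor (replicates 1, 2 and 3), with no overlap. Its log2 difference was −1.10 (SE 0.19), with a limma adjusted p of 0.106 and of 0.0125 with the block. *AT4G28780* had 473, 407 and 540 in the parent and 208, 147 and 275 in the suppressor, again with no overlap. It differed by −1.21 (SE 0.25, limma adjusted p = 0.124, and 0.0174 with the block). After *AT1G29660*, these were the only 2 family genes tested that were lower by more than 1.9-fold, the smaller of the study's fold thresholds, from the difference of the log2 means, as were 1.93% of all probe sets tested.

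*RXF26* and *AT5G33370* changed less. *RXF26* had 2333, 2545 and 3563 in the parent and 1241, 1107 and 2397 in the suppressor (replicates 1, 2 and 3), where suppressor replicate 3 lay above parent replicate 1. Within each number the suppressor array was the lower one, and the log2 difference was −0.89 (SE 0.30, limma adjusted p = 0.211, and 0.0239 with the block). *AT5G33370* had 10506, 10468 and 13970 in the parent and 7351, 6835 and 10141 in the suppressor, without overlap. Its log2 difference was −0.53 (SE 0.19, limma adjusted p = 0.223, and 0.0360 with the block). *AT1G33811* had 398, 390 and 278 against 175, 158 and 284, a log2 difference of −0.82 (SE 0.27), and passed in neither fit (limma adjusted p = 0.210, and 0.131 with the block).

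On the higher side, no other family gene passed the test in either fit. *AT5G45960* came closest, with signals of 426, 391 and 648 in the parent and 643, 676 and 976 in the suppressor (replicates 1, 2 and 3) and a log2 difference of 0.66 (SE 0.24, limma adjusted p = 0.234, and 0.0573 with the block). *AT1G06990* differed by 0.45 (SE 0.20, limma adjusted p = 0.297). *AT2G19010* had the most positive mean difference of the 44, 0.97 (SE 0.93), but its signal on parent replicate 3 was 15.0 and without that array the difference was −0.22. *AT5G14450* differed by 0.13 (SE 0.16) and *AT5G45920* by 0.20 (SE 0.33).

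**Figure D2:**
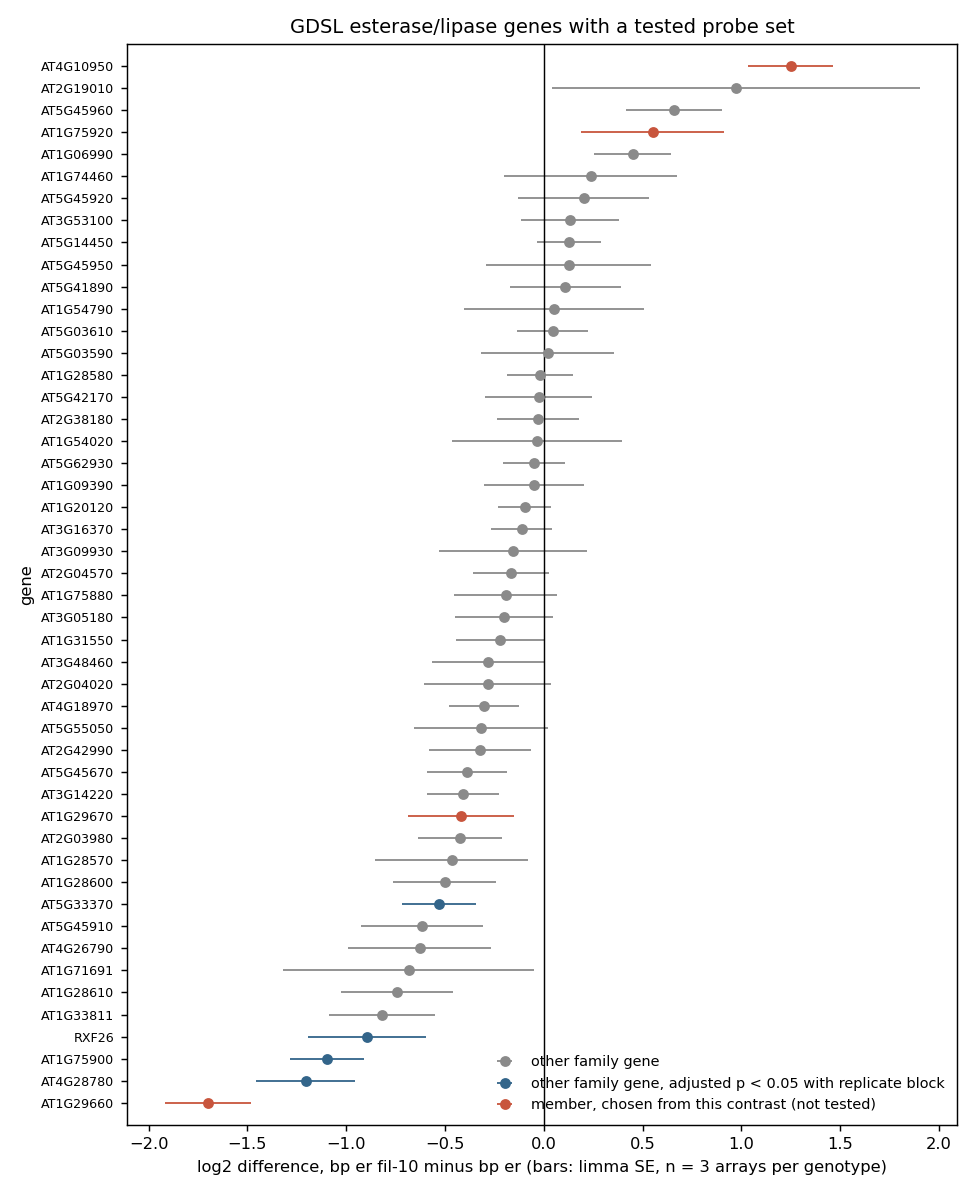
Log2 difference, *bp er fil-10* minus *bp er*, with limma's standard error (3 arrays per genotype) for the 44 other family genes tested and the 4 described genes in red, which were not tested. Most points lie left of 0, the 4 blue points passed the test with the replicate block, and *AT1G29660* and *AT4G10950* are the outermost points on the left and on the right.

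The EXL5 gene lies in a run of family genes on chromosome 1. From *AT1G75880* to *AT1G75930* the 6 protein-coding genes in a row are all on the family list. Of these, *AT1G75910* (*EXL4*) and *AT1G75930* (*EXL6*), the genes directly beside *AT1G75920*, had no named probe set and were not analysed here. *AT1G75900* lay lower in the suppressor, as given above, while *AT1G75920* had a positive difference of 0.55 with overlapping arrays. *AT1G75880* had 1396, 1494 and 2645 in the parent and 1509, 1297 and 1884 in the suppressor (replicates 1, 2 and 3), a log2 difference of −0.19 (SE 0.26, limma adjusted p = 0.735, and 0.529 with the block). *AT1G75890* had signals of 39.0 to 121 and reached 100 on 1 array, so it was not tested. Neighbours in this run therefore had mean differences of both signs, but of those analysed only *AT1G75900* had arrays that did not overlap. With 1 array left out, the difference ran from 0.11 to 0.91 for *AT1G75920* and from −0.36 to 0.10 for *AT1G75880*. *ATA27* (AT1G75940), the next gene in line and a member of the tapetum list, had overlapping genotypes and a log2 difference of 0.09 (SE 0.14).

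**Figure D3:**
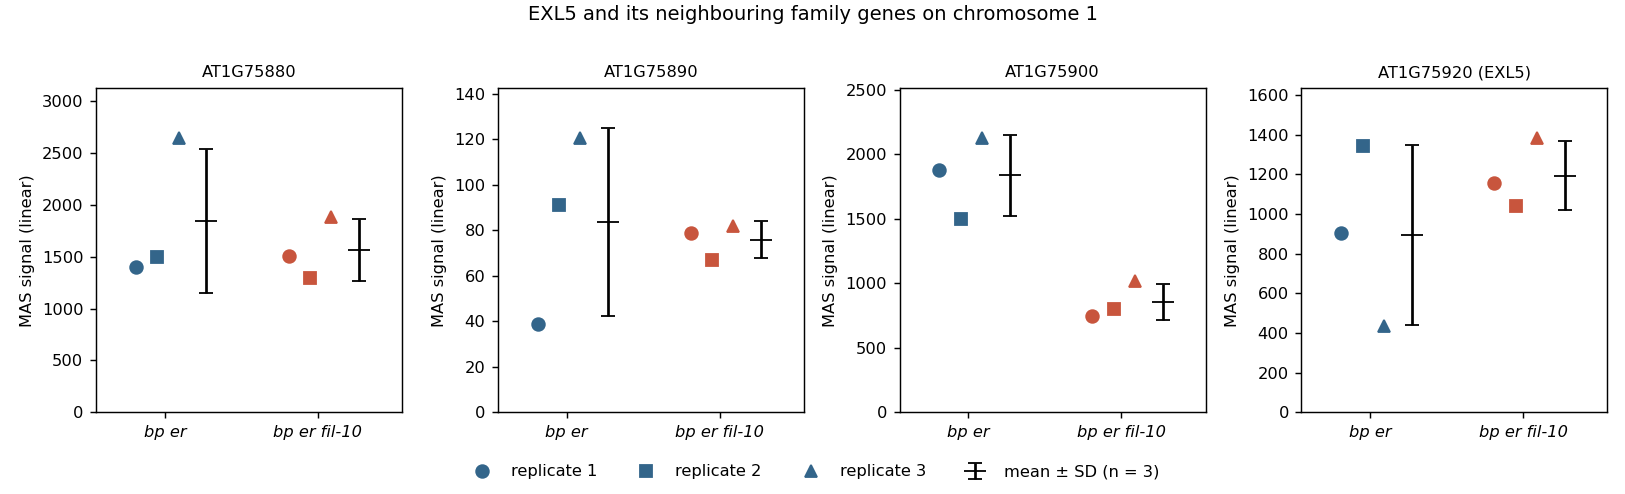
MAS signal (linear, from 0) on each array for *AT1G75880*, *AT1G75890*, *AT1G75900* and *AT1G75920* (EXL5), which lie near each other on chromosome 1, with replicates 1, 2 and 3 as circles, squares and triangles and the mean ± SD of 3 arrays in black. The genotypes separate for *AT1G75900*, where *bp er fil-10* is lower, and overlap for the other genes shown.

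Other family loci with nearby numbers were compared too. On chromosome 1, *AT1G28610* had 406, 316 and 197 in the parent and 196, 153 and 180 in the suppressor (replicates 1, 2 and 3), without overlap (log2 difference −0.75, SE 0.28), and *AT1G28570*, *AT1G28580* and *AT1G28600* differed by −0.47 (SE 0.39), −0.02 (SE 0.17) and −0.50 (SE 0.26), all with overlapping arrays. On chromosome 5, *AT5G45910* had 126, 164 and 160 against 109, 104 and 80.8, without overlap and lower in the suppressor. *AT5G45920* and *AT5G45950* differed by 0.20 (SE 0.33) and 0.12 (SE 0.42), and *AT5G45960* had the positive difference given above, all with overlapping arrays. *AT3G14220*, the last of the 6 genes without overlap, had 593, 554 and 532 against 350, 410 and 521, a log2 difference of −0.41 (SE 0.18). None of *AT1G28610*, *AT5G45910* and *AT3G14220* passed the test (limma adjusted p = 0.241, 0.349 and 0.303, and 0.135, 0.370 and 0.245 with the block).

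The remaining 26 family genes with a named probe set were too low to test. In 23 of them all 6 arrays were under 100, and the highest signal among the 26 was 140. The arrays of the genotypes did not overlap in 4 of the 26, 3 lower and 1 higher in the suppressor, picked out after their values were seen. Over the probe sets tested, 9.13% were lower and 14.2% higher without overlap. The share among probe sets too low to test was not computed, so nothing is read from the count. *AT1G20135* had 25.7, 20.2 and 80.8 in the parent and 89.6, 115 and 131 in the suppressor (replicates 1, 2 and 3). *AT1G73610*, which the study lists as lower in the suppressor, had 90.3, 75.8 and 48.4 against 25.5, 47.4 and 31.6. *AT1G28590* and *AT2G23540* were lower in the suppressor, with no signal above 61.9 on any array. *AT1G20130*, another family gene of the study's lists, had no named probe set.

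Replicate 3 had the highest signal of its genotype in both genotypes for 18 of the 44 other family genes (40.9%), against 18.8% of all probe sets tested, and the lowest in both for 2, against 18.1%. *AT5G45950* was one of them, with 719, 843 and 2226 in the parent and 1242, 851 and 1654 in the suppressor (replicates 1, 2 and 3). Of the 4 tested genes of late stamens, petals and nectaries, 3 were highest on replicate 3 in both genotypes, and *AT3G25810* was highest on it in the parent only. *SWEET9*, the sugar transporter of nectaries, had 1061, 842 and 2711 in the parent and 646, 369 and 777 in the suppressor. *JMT*, which encodes the enzyme that makes methyl jasmonate, had 409, 403 and 1091 and 90.1, 71.8 and 715. Of the 4 described genes, none was highest on replicate 3 in both genotypes, and *AT1G29670* and *AT4G10950* were lowest on it in both.

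**Figure D4:**
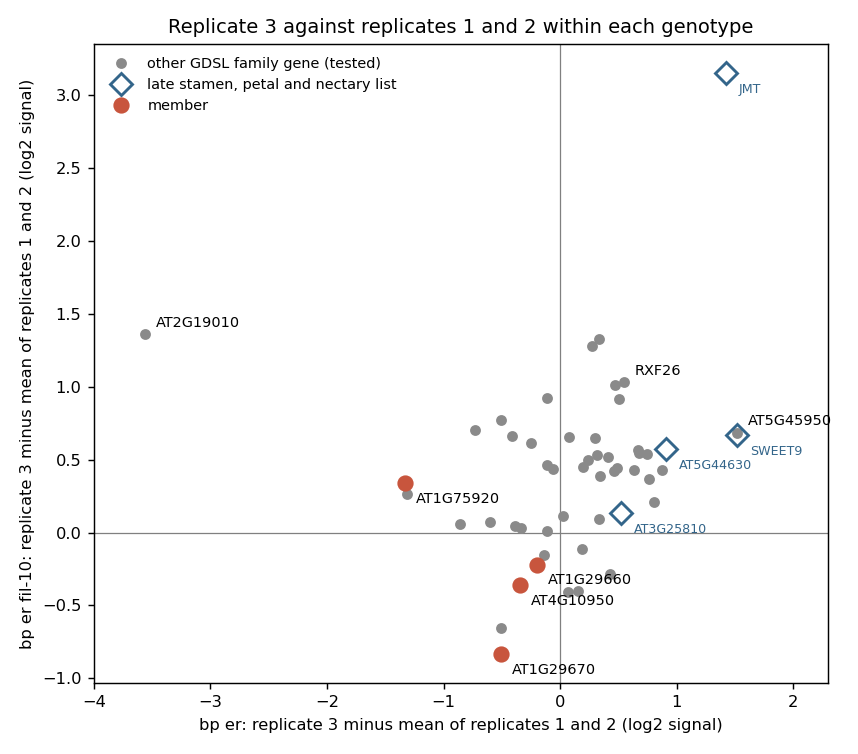
Log2 signal of replicate 3 minus the mean of replicates 1 and 2, in *bp er* (horizontal) and *bp er fil-10* (vertical), for the 44 other family genes tested (grey), the 4 genes of the late stamen, petal and nectary list (blue diamonds) and the 4 described genes (red). Many family genes and all of the late stamen, petal and nectary genes lie at upper right, *AT1G29660*, *AT1G29670* and *AT4G10950* lie at lower left, and *AT1G75920* lies at upper left.

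On the late stamen, petal and nectary list, all 4 with a named probe set of 12 listed had a lower mean log2 signal in the suppressor (median −1.35). Of all probe sets tested, 43.6% had a negative difference, and the median was 0.06. In 2 of the 4 the genotypes overlapped, and in 2 every suppressor array was below every parent array, against 9.13% of all. Limma called 0 of them without the block (2 lower at an unadjusted p under 0.05, against 7.06% of all probe sets). With the block it called 3 lower, against 2.13%. The 3 were *AT3G25810* at −1.46 (SE 0.27, and 0.25 with the block), *SWEET9* at −1.24 (SE 0.44, and 0.21) and *JMT* at −1.76 (SE 0.81, and 0.33). Their limma adjusted p was 0.1185, 0.2245 and 0.315 without the block and 0.0223, 0.0217 and 0.0268 with it. This list was chosen with earlier results of these data known, so the calls are not independent evidence. *AT5G44630* differed by −0.47 (SE 0.28) and passed in neither fit (limma adjusted p = 0.422, and 0.112 with the block). The *SWEET9* difference was −0.73 without parent replicate 3. *JMT* had 2 suppressor signals under 100 and differed by −1.55 with these raised to 100, by −1.15 without suppressor replicate 2 and by −2.81 without suppressor replicate 3. Without suppressor replicate 3, where its signal of 715 was far above the other suppressor signals, the fit with no block called *JMT* (limma adjusted p = 0.0443). That fit called 82 of all probe sets tested lower and 41 higher. The summed signal of the 4 was 3716 to 8618 on the parent arrays and 2486 to 4333 on the suppressor arrays. The share of late flower tissue in each sample was not measured, and its part in the lower family genes was not tested.

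Genes of the tapetum, pollen coat and pollen wall list, the tissue in which EXL genes are known to act, had 6 of 35 members tested. There were 5 positive differences and 1 negative (median 0.18), where 56.4% of all probe sets tested were positive, and in 3 of the 6 every suppressor array was above every parent array, against 14.2% of all. Limma called 0 (2 higher at an unadjusted p under 0.05, against 9.78%), and 1 with the block, against 1.6%, *SWEET8*, a sugar transporter gene needed for the pollen wall. It had 1638, 1705 and 1651 in the parent and 2207, 2817 and 3020 in the suppressor (log2 difference 0.67, SE 0.16, limma adjusted p = 0.130, and 0.0434 with the block). *AT5G07230* differed by 0.47 (SE 0.15) and *SHT*, a hydroxycinnamoyl transferase gene of the tapetum, by 0.15 (SE 0.13), and *AMS*, a bHLH regulator of the tapetum, by −0.04 (SE 0.30). The parent replicate 3 array, lowest for the EXL5 gene, was also lowest of its genotype for 4 of the 6: *SHT*, *ATA27*, *AMS* and *AT1G33430*. Their log2 signal there lay below the mean of replicates 1 and 2 by −0.08, −0.30, −0.15 and −0.21, against −1.33 for *AT1G75920*. The share of all probe sets lowest of their genotype on that array was not computed, so nothing is read from the count of 4. The summed signal of the 6 was 21388 to 25120 on the parent arrays and 25838 to 30785 on the suppressor arrays, and its part in the EXL5 values was not tested.

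The mature pollen list had 5 of 27 members tested and none passed in either fit. There were 3 negative and 2 positive differences, where 43.6% of all probe sets tested were negative. At an unadjusted p under 0.05, 1 was lower and 0 higher, with and without the block. The shares of all probe sets were 7.06% and 9.78% without the block and 9.64% and 12.4% with it. *AT3G19020* was the lowest, with 294, 403 and 280 in the parent and 159, 80.8 and 250 in the suppressor (replicates 1, 2 and 3). *ANX2*, a receptor kinase gene of pollen tubes, differed by −0.59 (SE 0.35), *TUA1*, a pollen tubulin gene, by −0.23 (SE 0.16), and the sperm histone gene *MGH3* by 0.19 (SE 0.25). On the list of cutin, wax and epidermal surface genes, 2 of 36 were tested, and limma called neither with or without the block. At an unadjusted p under 0.05, 0 and 1 were lower without and with it, against 7.06% and 9.64% of all probe sets. *SHN3* differed by −0.34 (SE 0.19) and *WSD1*, a wax ester synthase gene, by −0.41 (SE 0.45). With so few of these genes named, and all lists chosen with earlier results of these data known, the lists are given by their values only.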

How the data were processed

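Inflorescences of 2 genotypes, the parent *bp er* and the suppressor *bp er fil-10*, were profiled on 6 Affymetrix ATH1 arrays. The authors obtained a MAS intensity per probe set from GCOS, with a linear factor per array that sets a target of 500. The deposited intensity values are linear, and the mean per array was 500.0 after trimming 2% at each end. The table holds 22810 probe sets, 64 of them Affymetrix controls, which were not used. The log2 of each signal was taken, with the 1 signal of 0 set to 0.1. Probe sets reaching 100 on 3 or more arrays, 14456 in number, went into limma 3.58.1 under R 4.3.3 (lmFit, then eBayes with a trend on intensity), 2-sided, and p-values were adjusted by Benjamini-Hochberg over them. The code was tested on simulated data. Tables were made in Python 3.11.15 with pandas 2.3.3. The number of arrays limits the precision.

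Gene names came from the platform annotation and the TAIR10.1 gene table, for 13513 probe sets with 1 gene. Other probe sets were tested but carry no name. The family list was written from general knowledge of the family. The members and lists were chosen with earlier results of these data known. The text names the 4 genes, other family genes that passed a fit, that had 1 of the 5 smallest p in either direction or that the study lists, up to 3 genes per direction of each other list, and the 3 closest in pattern. Further genes named for not overlapping, for their position or for their replicate 3 signal were added after their values were seen.

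The labels number the biological replicates 1 to 3 in both genotypes and do not say what a number shares. The residuals of arrays with the same number, after removing genotype means, had correlations of 0.103, 0.221 and 0.380, each above the 0.1 taken to pair them. The pairing thus comes from the data and not from the labels, and it is weak for replicates 1 and 2. Parent replicate 1 correlated more with suppressor replicate 2 (0.183), and parent replicate 2 slightly more with suppressor replicate 1 (0.225). The blocked fit is given where it changes a call.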

Additional observations from a re-analysis of the deposited data

How the results depend on the processing

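The log2 differences of the 4 genes kept their sign under quantile normalization, equal array medians, signals under 100 raised to 100, the ratio of mean signals and with any 1 array left out, and moved by less than 1 SD. With 1 array left out they ran from −1.85 to −1.52 for *AT1G29660*, −0.67 to −0.14 for *AT1G29670*, 1.13 to 1.39 for *AT4G10950* and 0.11 to 0.91 for *AT1G75920*. Among the other family genes, limma called 0 without the block, 4 with the replicate block and 0 to 3 with 1 array left out. Over all probe sets it called 1 without a block, 540 with the replicate block, 15 with equal medians, 18 with signals under 100 raised to 100 and 1 to 123 with 1 array left out, the highest without *bp er fil-10* replicate 3. For the late stamen, petal and nectary list it called 3 with the block and 0 to 1 with 1 array left out (*JMT*, without *bp er fil-10* replicate 3), and for the tapetum list 1 with the block. Other settings left these counts as they were. Family genes without overlap, a check added after seeing the data, were 6 lower and 0 higher on all arrays (9.13% and 14.2% of all probe sets), and 6 to 19 lower and 0 to 3 higher with 1 array left out, where 11.4% to 18.5% of all probe sets were lower and 17.1% to 24.1% higher. The share of family genes with a negative difference was 72.7% after quantile normalization and 79.5% with equal medians, where it was 47.5% and 52.3% of all probe sets. No value could be had for floral organ identity genes, none of which passed the minimum. The cause of these changes was not tested. Signals near 100 carry the least information.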
